A study of Mus musculus with 8 samples.

Results

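The genes described are the PPAR receptors PPARγ and PPARδ and 8 lipid-handling genes that are known PPAR targets: Pparg, Ppard, Fabp4, Fabp5, Cd36, Lpl, Angptl4, Plin2, Cpt1a and Pdk4. They were chosen by symbol, as the genes whose Ensembl identifier carries one of these symbols in mouse GENCODE annotation, and all 10 were found among the 55359 genes listed. Total RNA was sequenced from mouse bone marrow-derived macrophages (BMDMs) in 4 groups of 2 samples, to compare the response to LPS/IFNγ between naïve macrophages and macrophages that had taken up apoptotic cells. All groups came from wildtype C57BL/6 mice, adult animals of both sexes, and were grown with M-CSF and GM-CSF at 20 ng/mL each. Ctrl samples were naïve and unstimulated, and LPS samples were naïve and received 100 ng/mL LPS with 100 U/mL IFNγ for 6 h. Eff samples were co-cultured, from day 6 of differentiation and for 16 h, with 5 apoptotic fibroblasts per macrophage and with 10 nM dimerizer. LPSEff samples had the same co-culture, a PBS wash, and then the same LPS/IFNγ stimulation for 6 h. The fibroblasts were a clone of the mouse line NIH-3T3 that carries a caspase-8 which the dimerizer activates, and CD45+ cells were isolated with magnetic beads before RNA was prepared. Whether Ctrl and LPS samples received dimerizer is not stated, and neither is whether samples of a group came from separate animals, so that p-values measure the spread between these samples, which may be technical.

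PPARs are nuclear receptors that bind fatty acids and their derivatives and act on DNA as heterodimers with RXR receptors. PPARγ is known as the main regulator of fat cell formation and is also expressed in macrophages, while PPARδ is expressed in most tissues. Macrophages that digest apoptotic cells take on their membrane lipids, which can be stored in droplets, oxidized in mitochondria or passed on.

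The macrophage label was compared with marker genes. All 12 macrophage markers listed were above the low-value limit of a mean of 10 normalized counts, and their summed level was 121141 and 126593 normalized counts in Ctrl, 116307 and 129960 in LPS, 112951 and 144836 in Eff, with 116635 and 174402 in LPSEff, with Lyz2 the most abundant. The defining marker Csf1r, the M-CSF receptor, ranged from 3835 to 6113 normalized counts and Cd68 from 669 to 1216 over the 8 samples. Adipocyte markers summed to 13.2 to 41.4 normalized counts per sample with Gpd1 the most abundant, 0 of the 12 passed the limit, and the defining Adipoq was at 0 in 5 of the 8 samples and at most 1.29 in the others. Lymphocyte markers summed to 9.17 to 32.3 with Gzma the most abundant, and 0 of the 8 passed the limit. Dendritic cell markers summed to 1557 to 9087 with Irf8 the most abundant, and neutrophil markers to 321 to 1284 with S100a8 the most abundant and Retnlg at 0 in Ctrl and LPS.

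Values are normalized counts, the reads on a gene divided by 1 size factor per sample. Recovered reads on genes were 3481288 and 12020918 in Ctrl, 6548938 and 9344411 in LPS, 7517814 and 9745287 in Eff, with 11267193 and 7472370 in LPSEff, so that 3 reads are worth 1.73 to 5.71 normalized counts, depending on the sample. Fold changes are limma differences of log2(normalized count + 1), given with their standard error (SE), and a gene is called where the adjusted p over the 16309 tested genes was under 0.05. All 10 genes passed the limit of a mean of 10, Pdk4 through Eff and LPSEff. The contrasts LPS vs Ctrl and Eff vs Ctrl share the Ctrl samples, LPS vs Ctrl and LPSEff vs LPS share the LPS samples, LPSEff vs Eff and Eff vs Ctrl share the Eff samples, and LPSEff vs Eff and LPSEff vs LPS share the LPSEff samples.

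In LPS vs Ctrl, 4 of the 10 genes were called, all lower: Pparg, Fabp4, Fabp5 and Angptl4. Of all tested genes, 24.0% were called there, 12.4% higher and 11.6% lower. LPSEff vs Eff had 3 called, Ppard higher and Pparg and Fabp5 lower, where 19.7% of all tested genes were called, 10.7% higher and 8.95% lower. The count in LPS vs Ctrl was 2 without Ctrl replicate 1 or LPS replicate 1 and 3 without any other sample, and in LPSEff vs Eff it was 1 without Eff replicate 1, Eff replicate 2 or LPSEff replicate 1. All genes called numbered 3910 in LPS vs Ctrl, 2076 without Ctrl replicate 1 and 2233 without Ctrl replicate 2, and 3213 in LPSEff vs Eff, where they were 1567, 1790, 1593 and 2037 without Eff replicate 1, Eff replicate 2, LPSEff replicate 1 and LPSEff replicate 2. Rescaling the samples to equal totals moved the median of all genes by −0.39 log2 in LPS vs Ctrl and by −0.44 in LPSEff vs Eff, and quantile normalization moved it by −0.11 in LPSEff vs Eff. The share of calls that were higher was 51.5% in LPS vs Ctrl, 24.8% with equal totals and 44.5% with quantile normalization, and 54.6% in LPSEff vs Eff against 21.8% with equal totals and 43.9% with quantile normalization.

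Eff vs Ctrl and LPSEff vs LPS compare macrophages after co-culture with naïve ones, without and with LPS/IFNγ. Angptl4 was called in Eff vs Ctrl, as 1 of the 10 genes, where 0.251% of all tested genes were called, 0.215% higher and 0.0368% lower. In LPSEff vs LPS, 3 of the 10 were called, all higher (Angptl4, Plin2 and Pdk4), where 0.773% of all tested genes were called, 0.730% higher and 0.0429% lower. Of these, Pdk4 passed the low-value limit only through the groups where it was high, so that its call is no support for a difference. The count in Eff vs Ctrl was 0 without Ctrl replicate 1, Ctrl replicate 2, Eff replicate 2, LPSEff replicate 1 or LPSEff replicate 2. In LPSEff vs LPS it was 0 without LPSEff replicate 1, 1 without LPSEff replicate 2 and 2 without any other sample. All genes called numbered 41 in Eff vs Ctrl, and 4, 8, 0, 9 and 9 without Ctrl replicate 1, Ctrl replicate 2, Eff replicate 2, LPSEff replicate 1 and LPSEff replicate 2. For LPSEff vs LPS they numbered 126, and 63, 60, 56, 17, 73, 0 and 6 without Ctrl replicate 1, Ctrl replicate 2, LPS replicate 1, LPS replicate 2, Eff replicate 2, LPSEff replicate 1 and LPSEff replicate 2.

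Among the markers of immune cells, named here after their values were seen, 3 of 12 macrophage markers (Adgre1, Mertk and Cd14) were called higher in LPS vs Ctrl. So were 2 of 6 tested dendritic cell markers (Xcr1 and Irf8) and 2 of 4 tested neutrophil markers (Camp and S100a8). None of these markers was called lower, and 12.4% of all tested genes were called higher there. LPSEff vs Eff had 4 macrophage markers called higher (with Fcgr1 as the fourth), 1 dendritic cell marker (Irf8) and 1 neutrophil marker (Camp). There, 10.7% of all tested genes were called higher. Of the co-culture contrasts, Eff vs Ctrl had 1 called, S100a8, which was higher, and LPSEff vs LPS 0, beside 0.251% and 0.773% of all tested genes. All 6 tested dendritic cell markers had negative log2 fold changes in Eff vs Ctrl (median −0.51, all genes −0.01). The same held in LPSEff vs LPS (median −0.64, all genes −0.00253). None of the 6 was called there in the main analysis, and DESeq2 called 1 of them in each. These 2 contrasts share no samples, but replicate differences correlated between the groups, so that they are not shown to be independent. The macrophage count in LPS vs Ctrl was 6 with equal totals, quantile normalization or DESeq2. Dendritic cell counts in LPS vs Ctrl were 1 with only the 2 groups compared and up to 4 with DESeq2. In LPSEff vs Eff they were 2 with only the 2 groups compared, quantile normalization, edgeR or DESeq2. They were also 2 there with genes of a mean above 0 or of at least 50. Neutrophil counts were 1 in LPS vs Ctrl without Ctrl replicate 1, Ctrl replicate 2 or LPS replicate 1, and 0 in LPSEff vs Eff without Ctrl replicate 1, Ctrl replicate 2, Eff replicate 1, Eff replicate 2 or LPSEff replicate 1. The neutrophil count in Eff vs Ctrl was 0 without Ctrl replicate 1, Ctrl replicate 2, Eff replicate 1, Eff replicate 2, LPSEff replicate 1 or LPSEff replicate 2, with only the 2 groups compared and with edgeR. Other settings also moved it to 1 in LPS vs Ctrl (genes of a mean of at least 50), and in LPSEff vs Eff to 0 (equal totals, only the 2 groups compared) or 2 (edgeR). The part of these cell types in the results was not tested.

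The sum of the 22 fibroblast markers was 1853 and 1756 normalized counts in Ctrl, 4015 and 4449.9 in LPS, 3337 and 6939 in Eff, with 11354 and 12805 in LPSEff, with Fstl1 the most abundant. Of 20 tested, 8 were called higher in LPSEff vs LPS and 9 in Eff vs Ctrl, beside 0.730% and 0.215% of all tested genes. Median log2 fold changes of the 20 were 3.77 and 3.72, where the medians of all genes were −0.00253 and −0.01. Col3a1, Col6a2, Bgn, Dcn, Thbs2 and Loxl1 were under the limit in their mean over the Ctrl and LPS samples and were tested only because Eff and LPSEff lifted them, so that their part in these counts and medians is no independent sign of a difference. Mean levels of the defining collagen gene Col1a1 were 9.88 ± 3.20 (SD, n = 2) in Ctrl, 27.7 ± 15.4 in LPS, 239 ± 64.8 in Eff and 572 ± 49.2 in LPSEff, and those of Pdgfra, a growth factor receptor of mesenchymal cells, were 19.0 ± 8.10, 16.8 ± 3.58, 185 ± 103 and 389.6 ± 32.3. Thy1, another defining marker, was at 31.5 ± 6.91, 63.6 ± 35.0, 25.8 ± 5.47 and 43.1 ± 7.23, and none of these 3 was at 0 in a Ctrl or LPS sample, while Dcn was at 0 in Ctrl replicate 1. In Eff vs Ctrl the count was 2 without Ctrl replicate 1, Ctrl replicate 2, LPSEff replicate 1 or LPSEff replicate 2 and 0 without Eff replicate 2. In LPSEff vs LPS it was 4 without LPS replicate 1, 3 without LPS replicate 2 and 0 without LPSEff replicate 1 or LPSEff replicate 2. Of the fibroblast markers, 4 were called higher in LPS vs Ctrl (median log2 1.22, 18 of 20 positive), with 2 without Ctrl replicate 1 and 7 with DESeq2. LPSEff vs Eff had 2 called higher (median 0.89, 20 of 20 positive), with 6 in DESeq2, 5 with only the 2 groups compared and 4 with edgeR or a pseudocount of 5, and the count was 4 without Ctrl replicate 1, Ctrl replicate 2 or Eff replicate 2 and 1 without Eff replicate 1 or LPSEff replicate 2. Of all tested genes, 12.4% were called higher in LPS vs Ctrl and 10.7% in LPSEff vs Eff. With genes of a mean of at least 50 or with edgeR 4 were called in Eff vs Ctrl, and with only the 2 groups compared 1. The replicate number as a term in limma gave 13 in LPS vs Ctrl and 8 in LPSEff vs Eff (8 and 11 in edgeR). For Eff vs Ctrl and LPSEff vs LPS it gave 15 and 13 (14 and 15 in edgeR). The part of fibroblast RNA in the levels of the 10 genes after co-culture was not tested, and in these bulk samples fewer cells of a type and less RNA per cell cannot be told apart.

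**Figure D1:**
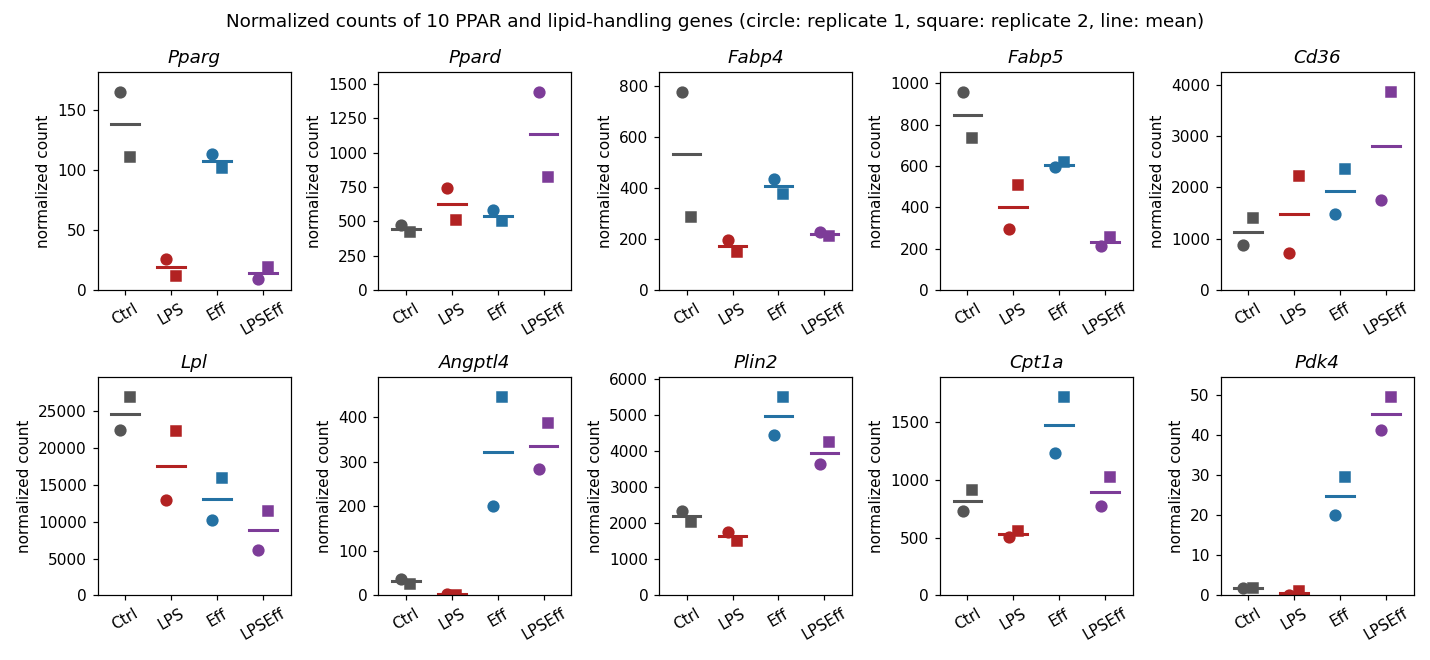
Normalized counts of the 10 genes in every sample, on linear axes that start at 0, with circles for replicate 1, squares for replicate 2 and lines for the mean of each group. Pparg was at or below 25.9 in all LPS and LPSEff samples and at or above 102 in all Ctrl and Eff samples, and Angptl4 was at or above 199.8 in all Eff and LPSEff samples and at or below 36.2 in the rest.

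Pparg (ENSMUSG00000000440, chr6:115337675-115468268, + strand, GRCm39) encodes PPARγ. Its normalized counts were 166 and 111 in Ctrl, 25.9 and 12.2 in LPS, 114 and 102 in Eff, with 9.50 and 19.0 in LPSEff. Both stimulated groups lay far below both unstimulated ones, Ctrl and Eff overlapped, and so did LPS and LPSEff. The mean in Ctrl was 7.27 times that in LPS, with a log2 fold change of −2.86 ± 0.46 (SE) and an adjusted p of 0.00337 in LPS vs Ctrl. Between Eff and LPSEff, Eff was 7.58 times LPSEff (log2 −2.91 ± 0.46, adjusted p = 0.00360). Pparg was called in both contrasts without any 1 of the 8 samples, with adjusted p at most 0.0341 and 0.0294. The difference in Eff vs Ctrl was −0.33 ± 0.46 (adjusted p = 0.999), and in LPSEff vs LPS it was −0.38 ± 0.46 (adjusted p = 0.876), with a positive sign without LPS replicate 1 (0.14) or LPSEff replicate 1 (0.09).

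Ppard (ENSMUSG00000002250, chr17:28451674-28520448, + strand) encodes PPARδ. It was at 470.3 and 423 normalized counts in Ctrl, 744 and 509.8 in LPS, 582 and 502 in Eff, with 1442 and 821 in LPSEff. Both LPSEff samples were higher than all others, the LPSEff samples also differed most from each other, and only LPS and Eff overlapped. In LPSEff vs Eff the log2 fold change was 1.01 ± 0.30 (adjusted p = 0.0463), and in LPS vs Ctrl it was 0.46 ± 0.30 (adjusted p = 0.307). The call in LPSEff vs Eff was lost without Ctrl replicate 1 or Ctrl replicate 2 (adjusted p = 0.0734 each), Eff replicate 1 (0.120), Eff replicate 2 (0.194) or LPSEff replicate 1 (0.254, with a log2 value of 0.60). It was also lost with all genes above a mean of 0 (0.0602), only the 2 groups compared (0.0598), quantile normalization (0.123) and equal totals (0.233, log2 0.56), in a range up to 0.254. LPSEff vs LPS gave 0.82 ± 0.30 (adjusted p = 0.369) and Eff vs Ctrl 0.28 ± 0.30 (adjusted p = 0.999).

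Of the 18 receptors and coregulators listed, 15 were tested. In LPS vs Ctrl, 1 was called higher and 3 lower, beside 24.0% of all tested genes (median log2 −0.02, all genes −0.01), and without Pparg and Ppard 1 of 13 was higher and 2 were lower. Rxra, the RXR partner of PPARs, fell from a mean of 803 in Ctrl to 184 in LPS (log2 −2.11 ± 0.20, adjusted p = 0.000281) and from 1081 in Eff to 315 in LPSEff (log2 −1.79 ± 0.20, adjusted p = 0.000649). Ppargc1b, a coactivator of mitochondrial genes, fell in LPS vs Ctrl by 2.37 on the log2 scale (adjusted p = 0.0105) and in LPSEff vs Eff by 2.26 (adjusted p = 0.0147). Its Ctrl level was 89.8 ± 53.4 (SD). Without 1 sample its log2 value ranged from −3.01 to −1.73 in LPS vs Ctrl and from −2.70 to −1.82 in LPSEff vs Eff. Nrip1, a corepressor, rose from 457 to 789 in LPS vs Ctrl (log2 0.79 ± 0.18, adjusted p = 0.0154). LPSEff vs Eff had 1 called higher and 4 lower, beside 19.7% of all (median −0.16, all genes 0.01), and without Pparg and Ppard 0 of 13 were higher and 3 lower. Eff vs Ctrl gave 0 calls, as did LPSEff vs LPS, where 4 were called with the replicate number as a term in limma or edgeR. Ppara, the third PPAR, was not tested, with 0 to 11.6 normalized counts per sample.

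Rxra was called without any 1 sample in both contrasts. Ppargc1b lost its call in LPS vs Ctrl without Ctrl replicate 1 (adjusted p = 0.0723), and in LPSEff vs Eff without Eff replicate 1 (0.0913), Eff replicate 2 (0.0546) or LPSEff replicate 1 (0.0934). Nrip1 lost its call without Ctrl replicate 1 (0.0939), Ctrl replicate 2 (0.0553) or LPS replicate 2 (0.0553) and with equal totals (0.113, log2 0.39). The count of the receptor list was 2 in LPS vs Ctrl without Ctrl replicate 1. For LPSEff vs Eff it was 3 without Ctrl replicate 1, Ctrl replicate 2 or Eff replicate 2, 2 without Eff replicate 1 or LPSEff replicate 1, 3 with all genes above a mean of 0 and 10 with equal totals.

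Fabp4 (ENSMUSG00000062515, chr3:10268785-10273737, − strand) and Fabp5 (ENSMUSG00000027533, chr3:10077602-10081674, + strand) encode fatty acid binding proteins that carry fatty acids in the cytosol. Fabp4 was at 779 and 288 normalized counts in Ctrl, 198 and 151 in LPS, 436 and 378 in Eff, with 229 and 213 in LPSEff. The Ctrl samples lay far apart, with Eff between them, and both stimulated groups were below both unstimulated groups. The log2 fold change of Fabp4 in LPS vs Ctrl was −1.45 ± 0.41 (adjusted p = 0.0350), and in LPSEff vs Eff −0.88 ± 0.41 (adjusted p = 0.179). The call in LPS vs Ctrl held only without Ctrl replicate 2. Without Ctrl replicate 1 the value was −0.73 (adjusted p = 0.133), without LPS replicate 1 or LPS replicate 2 adjusted p was 0.0649 and 0.130, without Eff replicate 1, Eff replicate 2, LPSEff replicate 1 or LPSEff replicate 2 it was 0.0511, 0.0519, 0.0510 and 0.0516, and the call was also lost with only the 2 groups compared (0.0784) and with quantile normalization (0.0647). Fabp4 was called in LPSEff vs Eff without Ctrl replicate 1 (adjusted p = 0.0377) or Ctrl replicate 2 (0.0360), with only the 2 groups compared (0.0304) and with equal totals (0.0482, log2 −1.33), in a range up to 0.421. Eff vs Ctrl gave −0.22 ± 0.41 (adjusted p = 0.999), which turned to 0.50 without Ctrl replicate 1, and LPSEff vs LPS gave 0.35 ± 0.41 (adjusted p = 0.866). Exons of Fabp4 share 1188 bases with an antisense lncRNA, Gm66293, that is not among the genes listed.

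Fabp5 was at 959.7 and 737 normalized counts in Ctrl, 296 and 508 in LPS, 596 and 618 in Eff, with 211 and 256 in LPSEff. The groups did not overlap, in the order Ctrl, Eff, LPS and LPSEff from high to low. The log2 fold change was −1.11 ± 0.28 in LPS vs Ctrl (adjusted p = 0.0216) and −1.38 ± 0.28 in LPSEff vs Eff (adjusted p = 0.0103). The first call was lost without Ctrl replicate 1 (adjusted p = 0.133), Ctrl replicate 2 (0.0501) or LPS replicate 1 (0.0932, log2 −0.73) and with only the 2 groups compared (0.0556). The call in LPSEff vs Eff was lost without Eff replicate 1 (0.0551), Eff replicate 2 (0.0569) or LPSEff replicate 1 (0.0705). Eff vs Ctrl gave −0.47 ± 0.28 (adjusted p = 0.985) and LPSEff vs LPS −0.73 ± 0.28 (adjusted p = 0.401). Fabp5 has 2 copies elsewhere in the genome of at least 95% identity over at least 300 bases. The copy on chromosome 9 (98.7% identity) lies in the pseudogenes Gm18103 and Gm6166, with mean normalized counts of 48.5 and 20.3. The copy on chromosome 18 (97.6% identity) overlaps the pseudogene Gm14328 and the gene Cfap53, with means of 23.4 and 3.05.

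Cd36 (ENSMUSG00000002944, chr5:17986432-18094067, − strand) encodes a scavenger receptor that takes up fatty acids and oxidized lipoproteins. It was at 870.2 and 1401 normalized counts in Ctrl, 723 and 2222 in LPS, 1488 and 2356 in Eff, with 1745 and 3862 in LPSEff. Replicate 2 was the higher sample in each group, the LPS samples spanned the range of Ctrl, and both Ctrl samples were below both Eff and both LPSEff samples, while the other pairs of groups overlapped. Cd36 was called in none of the contrasts in the main analysis: log2 0.20 ± 0.57 in LPS vs Ctrl (adjusted p = 0.846), 0.47 ± 0.57 in LPSEff vs Eff (0.629), 0.76 ± 0.57 in Eff vs Ctrl (0.999), with 1.03 ± 0.57 in LPSEff vs LPS (0.611). With the replicate number as a term in limma or edgeR, Cd36 was called higher in LPSEff vs LPS. The sign in LPS vs Ctrl turned with equal totals (−0.20) and quantile normalization (−0.16) and without Ctrl replicate 1 (−0.14) or LPS replicate 2 (−0.61), and in LPSEff vs Eff with quantile normalization (−0.10) and without LPSEff replicate 2 (−0.10). In LPSEff vs LPS the log2 value ranged from 0.22 to 1.84 without 1 sample.

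Of the 16 genes listed for fatty acid uptake, binding and activation, 15 were tested. LPS vs Ctrl had 3 called higher and 3 lower (median log2 0.23, all genes −0.01), beside 24.0% of all tested genes, and in LPSEff vs Eff 3 were higher and 2 lower (median 0.35, all genes 0.01), beside 19.7%. Without Cd36, Fabp4 and Fabp5, 3 of 12 were higher and 1 lower in each. Acsl1, which activates long-chain fatty acids to acyl-CoA, rose from a mean of 1492 in Ctrl to 7991 in LPS (log2 2.47 ± 0.26, adjusted p = 0.000465) and from 1184 in Eff to 9563 in LPSEff (log2 3.02 ± 0.26, adjusted p = 0.000168). Acsl3, another acyl-CoA synthetase, fell from 284 to 64.3 in LPS vs Ctrl (log2 −2.13 ± 0.22, adjusted p = 0.000405) and from 201 to 77.9 in LPSEff vs Eff (log2 −1.36 ± 0.22, adjusted p = 0.00375). Fabp3, the fatty acid binding protein of heart and muscle, rose from 46.7 to 219 (log2 2.28 ± 0.39, adjusted p = 0.00459) and from 17.9 to 226 (log2 3.63 ± 0.39, adjusted p = 0.000564). Acsl1, Acsl3 and Fabp3 were called without any 1 sample in both contrasts. Eff vs Ctrl and LPSEff vs LPS gave 0 calls.

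Slc27a3, of the fatty acid transport protein family, was called higher in LPS vs Ctrl (log2 1.20 ± 0.35, adjusted p = 0.0414), and the synthetase gene Acsl4 in LPSEff vs Eff (log2 0.92 ± 0.19, adjusted p = 0.0127). Slc27a3 lost its call without Ctrl replicate 1 (0.130), Ctrl replicate 2 (0.155), LPS replicate 1 (0.0735), LPS replicate 2 (0.176), LPSEff replicate 1 (0.0574) or LPSEff replicate 2 (0.0580), with all genes above a mean of 0 (adjusted p = 0.0709) and with equal totals (0.104). Acsl4 lost its call without Eff replicate 1 (0.0961) or LPSEff replicate 2 (0.0790), with equal totals (0.0723, log2 0.47) and with quantile normalization (0.174, log2 0.37). The count of the uptake list was 3 in LPS vs Ctrl without Ctrl replicate 1 and 3 in LPSEff vs Eff without Eff replicate 1.

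Lpl (ENSMUSG00000015568, chr8:69284603-69360100, + strand) encodes lipoprotein lipase, which releases fatty acids from the triglycerides of lipoproteins. It was at 22439 and 26938 normalized counts in Ctrl, 12931 and 22319.8 in LPS, 10229.7 and 15971 in Eff, with 6216 and 11435 in LPSEff. Ctrl was highest and LPSEff lowest, LPS overlapped with Eff, and Eff overlapped with LPSEff. None of the contrasts was called in the main analysis: log2 −0.53 ± 0.39 in LPS vs Ctrl (adjusted p = 0.378), −0.60 ± 0.39 in LPSEff vs Eff (0.340), −0.94 ± 0.39 in Eff vs Ctrl (0.765), with −1.01 ± 0.39 in LPSEff vs LPS (0.415). With the replicate number as a term in limma or edgeR, Lpl was called lower in each of them. With quantile normalization Lpl was called lower in LPS vs Ctrl (−1.36, adjusted p = 0.0201, range up to 0.867) and in LPSEff vs Eff (−1.56, 0.0127, range up to 0.870), and with equal totals in LPSEff vs Eff (−1.05, 0.0480).

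Angptl4 (ENSMUSG00000002289, chr17:33992724-34000804, − strand) encodes a secreted inhibitor of lipoprotein lipase. It was at 36.2 and 26.6 normalized counts in Ctrl, 3.88 and 2.03 in LPS, 199.8 and 445 in Eff, with 283 and 386 in LPSEff. LPS was lowest, Ctrl lay between, and both co-culture groups were highest and overlapped with each other. LPS vs Ctrl had 5 reads against 65, a ratio of 0.0986 with a 95% counting interval of 0.0310 to 0.242, and limma called Angptl4 lower (log2 −3.06 ± 0.44, adjusted p = 0.00200). LPSEff vs LPS had 662 reads against 5, a ratio of 113 with a counting interval of 48.4 to 351, and Angptl4 was called higher (log2 6.43 ± 0.44, adjusted p = 0.00337), where the log2 values against so few reads depend on the pseudocount. In Eff vs Ctrl the mean was 10.3 times higher (log2 3.22 ± 0.44, adjusted p = 0.0402), and in LPSEff vs Eff the difference was 0.15 ± 0.44 (adjusted p = 0.862), with a negative sign with equal totals (−0.30) and without Eff replicate 1 (−0.43) or LPSEff replicate 2 (−0.07).

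Angptl4 was called in LPS vs Ctrl without any 1 sample (adjusted p at most 0.0210), and in LPSEff vs LPS without any sample other than LPSEff replicate 1 (adjusted p = 0.0537). In Eff vs Ctrl the call of Angptl4 was lost without Ctrl replicate 1 (0.195), Ctrl replicate 2 (0.170), Eff replicate 2 (0.267), LPSEff replicate 1 (0.108) or LPSEff replicate 2 (0.109). It was also lost with genes of a mean of at least 50 (0.0532), with only the 2 groups compared (0.0772) and with edgeR, while DESeq2 gave 2.08e-10 (range up to 0.267). The limma interaction, which asks whether the LPS/IFNγ effect differed after co-culture, was 3.21 ± 0.62 for Angptl4, with an unadjusted p of 0.000809 and an adjusted p of 1.00 (0.195 with DESeq2). This interaction rests on the 5 reads of LPS and depends on the pseudocount, at 2.34 with 5 and 3.39 with 0.5.

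Of the 17 genes listed for the lipoprotein lipase system and the ANGPTL family, 13 were tested. LPS vs Ctrl had 1 called higher and 2 lower (median log2 0.19, all genes −0.01), beside 24.0% of all tested genes, and in LPSEff vs Eff 1 higher and 1 lower (median 0.23, all genes 0.01), beside 19.7%. Angptl2, another secreted protein of the ANGPTL family, fell from a mean of 1486 in Ctrl to 232 in LPS (log2 −2.63 ± 0.28, adjusted p = 0.000534) and from 3514 in Eff to 1181 in LPSEff (log2 −1.57 ± 0.28, adjusted p = 0.00660), and was called without any 1 sample in both. Furin, a protease that cleaves proproteins, rose from 3581 to 10392 (log2 1.54 ± 0.30, adjusted p = 0.00745) and from 4269 to 11045 (log2 1.42 ± 0.30, adjusted p = 0.0120). In LPSEff vs LPS, Angptl4 and Angptl2 were the 2 genes called higher (median −0.16, all genes −0.00253), with Angptl2 at log2 2.36 ± 0.28 (adjusted p = 0.0174), and in Eff vs Ctrl Angptl4 was the 1 gene called (median 0.00234, all genes −0.01). Of all tested genes, 0.773% were called in LPSEff vs LPS and 0.251% in Eff vs Ctrl. Without Lpl and Angptl4, 1 of 11 was higher and 1 lower in each LPS/IFNγ contrast, 1 was called in LPSEff vs LPS and 0 in Eff vs Ctrl.

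Furin lost its call in LPS vs Ctrl without Ctrl replicate 2 (adjusted p = 0.0569) and with quantile normalization (0.131, log2 0.75). Furin lost it in LPSEff vs Eff without Eff replicate 2 (0.0759) or LPSEff replicate 1 (0.0754), with equal totals (0.0505) and with quantile normalization (0.275, log2 0.55). Angptl2 lost its call in LPSEff vs LPS without LPS replicate 1 (0.0584), LPS replicate 2 (0.0527), LPSEff replicate 1 (0.151) or LPSEff replicate 2 (0.165). The count of the lipase list in LPSEff vs Eff was 1 without Eff replicate 2 or LPSEff replicate 1, and in LPSEff vs LPS it was 1 without LPS replicate 1, LPS replicate 2 or LPSEff replicate 2 and 0 without LPSEff replicate 1. In Eff vs Ctrl it was 0 without Ctrl replicate 1, Ctrl replicate 2, Eff replicate 2, LPSEff replicate 1 or LPSEff replicate 2, with genes of a mean of at least 50, with only the 2 groups compared and with edgeR, and 3 with DESeq2.

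Plin2 (ENSMUSG00000028494, chr4:86565912-86588459, − strand) encodes perilipin 2, which coats lipid droplets in most cells. It was at 2331 and 2044 normalized counts in Ctrl, 1765 and 1517 in LPS, 4459 and 5501 in Eff, with 3652 and 4255 in LPSEff. The groups did not overlap, both co-culture groups were highest, and within each pair the stimulated group was lower. The mean in LPSEff was 2.41 times that in LPS (log2 1.27 ± 0.20, adjusted p = 0.0377), and the mean in Eff was 2.28 times that in Ctrl (log2 1.18 ± 0.20, adjusted p = 0.0740). The call in LPSEff vs LPS was lost without each of the 8 samples in turn, at adjusted p of 0.0690 and 0.0722 (Ctrl replicates 1 and 2), 0.0730 and 0.175 (LPS), 0.0573 and 0.0612 (Eff) and 0.226 and 0.314 (LPSEff), and with only the 2 groups compared (0.120) and quantile normalization (0.0712). DESeq2 called Plin2 in Eff vs Ctrl (adjusted p = 0.000158, range up to 0.567). LPS vs Ctrl gave −0.42 ± 0.20 (adjusted p = 0.176) and LPSEff vs Eff −0.33 ± 0.20 (adjusted p = 0.302), and both were called with equal totals (−0.82 and −0.78, adjusted p = 0.0144 and 0.0181) and quantile normalization (−0.95 and −1.11, adjusted p = 0.0157 and 0.00903), in ranges up to 0.469 and 0.735. Plin2 has 1 copy of 96.5% identity, Gm12551, with a mean of 9.84 normalized counts.

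Of the 23 genes listed for lipid droplet storage and lipolysis, 17 were tested. LPS vs Ctrl had 3 called higher and 7 lower (median log2 −0.53, all genes −0.01), beside 24.0% of all tested genes, and in LPSEff vs Eff 3 were higher and 6 lower (median −0.43, all genes 0.01), beside 19.7%, with the same counts over the 16 other than Plin2. Hilpda, an inhibitor of triglyceride lipolysis, was called higher in LPS vs Ctrl (log2 3.48 ± 0.86, adjusted p = 0.0212), from a mean of 64.7 ± 43.2 (SD) to 907 ± 900, and in LPSEff vs Eff (log2 2.87 ± 0.86, adjusted p = 0.0494), from 326 ± 190 to 2399 ± 1407. Without 1 sample its log2 value ranged from 2.22 to 4.73 in LPS vs Ctrl and from 2.24 to 3.51 in LPSEff vs Eff. Dgat2, which makes triglycerides, rose in LPS vs Ctrl from 31.4 ± 1.36 (SD) to 243 ± 189, with log2 changes of 2.66 ± 0.56 (adjusted p = 0.0112) there and, in LPSEff vs Eff, 2.50 ± 0.56 (adjusted p = 0.0164), and Lpin2, a phosphatidate phosphatase, rose by 0.89 ± 0.19 (adjusted p = 0.0121) and 0.73 ± 0.19 (adjusted p = 0.0313). Mgll, which cleaves monoglycerides, fell by 2.02 on the log2 scale in LPS vs Ctrl (adjusted p = 0.00464) and by 1.42 in LPSEff vs Eff (adjusted p = 0.0237). Also lower in LPS vs Ctrl were Fitm2, a protein of droplet formation (log2 −1.60 ± 0.29, adjusted p = 0.00555), and Lpin1, another phosphatidate phosphatase (log2 −1.501 ± 0.24, adjusted p = 0.00341). In LPSEff vs Eff, Abhd5, the coactivator of adipose triglyceride lipase (log2 −1.21 ± 0.18, adjusted p = 0.00270), and Gpam, which makes lysophosphatidate (log2 −0.97 ± 0.21, adjusted p = 0.0146), were lower. Eff vs Ctrl gave 0 calls (median 0.15), and LPSEff vs LPS gave 1, Plin2 (median 0.32), beside 0.251% and 0.773% of all tested genes.

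Fitm2, Lpin1, Abhd5 and, in LPS vs Ctrl, Mgll were called without any 1 sample. Hilpda lost its call in LPS vs Ctrl without Ctrl replicate 2 (adjusted p = 0.131) or LPS replicate 1 (0.0883, log2 2.22), Dgat2 without Ctrl replicate 1 (0.0628) or Ctrl replicate 2 (0.0556), and Lpin2 without Ctrl replicate 1 (0.0719), Ctrl replicate 2 (0.0554) or LPS replicate 2 (0.0572) and with equal totals (0.0512, log2 0.49). Hilpda and Lpin2 lost their calls in LPSEff vs Eff without Ctrl replicate 1 (0.0591 and 0.0546), Ctrl replicate 2 (0.0601 and 0.0541), Eff replicate 1 (0.0770 and 0.201), Eff replicate 2 (0.226 and 0.0570), LPSEff replicate 1 (0.238 and 0.138) or LPSEff replicate 2 (0.0694 and 0.106). Dgat2 lost its call there without Eff replicate 2 (0.0995) or LPSEff replicate 1 (0.0976), and Mgll and Gpam lost theirs without Eff replicate 1 (0.0832 and 0.0846), Eff replicate 2 (0.116 and 0.0815), LPSEff replicate 1 (0.0547 and 0.0687) or LPSEff replicate 2 (0.122 and 0.0704). Hilpda also lost it with a pseudocount of 0.5 (0.0504), equal totals (0.0753), quantile normalization (0.0652) and edgeR (0.0563), and Lpin2 with all genes above a mean of 0 (0.0893), only the 2 groups compared (0.0553) and equal totals (0.232, log2 0.28). Dgat2 in LPS vs Ctrl was at log2 1.77 without LPS replicate 1 and 3.54 without LPS replicate 2, called in both. The count of the droplet list in LPS vs Ctrl was 6 without Ctrl replicate 1 and 5 without Ctrl replicate 2. For LPSEff vs Eff it was 5 with all genes above a mean of 0 and without Ctrl replicate 1 or Ctrl replicate 2, 2 without Eff replicate 1, LPSEff replicate 1 or LPSEff replicate 2 and 1 without Eff replicate 2. DESeq2 called 1 of the list in Eff vs Ctrl.

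Cpt1a (ENSMUSG00000024900, chr19:3371853-3437996, + strand) encodes carnitine palmitoyltransferase 1A, which commits long-chain fatty acids to mitochondrial oxidation. It was at 729 and 911 normalized counts in Ctrl, 506 and 559.5 in LPS, 1230.3 and 1716 in Eff, with 771 and 1023 in LPSEff. Eff was highest and LPS lowest, and Ctrl and LPSEff overlapped between them. None of the contrasts was called in the main analysis: log2 −0.61 ± 0.24 in LPS vs Ctrl (adjusted p = 0.0997), −0.71 ± 0.24 in LPSEff vs Eff (0.0719), 0.83 ± 0.24 in Eff vs Ctrl (0.393), with 0.74 ± 0.24 in LPSEff vs LPS (0.293). With the replicate number as a term in limma or edgeR, each of them was called for Cpt1a, with the same signs. Cpt1a was called lower with equal totals and with quantile normalization in LPS vs Ctrl (adjusted p = 0.00643 and 0.0264, range up to 0.366) and in LPSEff vs Eff (0.00405 and 0.00989, range up to 0.355), and with DESeq2 in LPSEff vs Eff (0.0352).

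Pdk4 (ENSMUSG00000019577, chr6:5483097-5496339, − strand) encodes a pyruvate dehydrogenase kinase, which turns the cell from glucose towards fatty acids as fuel. It was at 1.90 and 1.73 normalized counts in Ctrl, 0 and 1.02 in LPS, 20.2 and 29.6 in Eff, with 41.2 and 49.5 in LPSEff. Both naïve groups were at no more than 3 reads per sample, so that no fold is given for LPS vs Ctrl, and the groups did not overlap. LPSEff vs LPS had 91 reads against 1, a ratio of 78.0 with a 95% counting interval of 13.7 to 3114, and limma gave an adjusted p of 0.0177. Since Pdk4 was tested only because Eff and LPSEff lifted its mean above the limit, its p-values in the co-culture contrasts are no independent sign of a difference. In Eff vs Ctrl there were 65 reads against 4, a ratio of 14.3 with a counting interval of 5.33 to 54.1, and the adjusted p was 0.134 in limma and 0.0191 in DESeq2 (range up to 0.803). The call in LPSEff vs LPS was lost without LPSEff replicate 1 (0.218) or LPSEff replicate 2 (0.234) and with only the 2 groups compared (0.0575). LPSEff vs Eff gave log2 0.86 ± 0.61 (adjusted p = 0.389). Over the 8 samples, Pdk4 had a Pearson r of 0.975 with the fibroblast marker Pdgfra, a relation chosen after the values were seen, and the part of fibroblast RNA in the Pdk4 level was not tested.

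All 11 genes listed for pyruvate dehydrogenase and its kinases and phosphatases were tested. LPS vs Ctrl had 0 called higher and 2 lower (median log2 −0.58, all genes −0.01), beside 24.0% of all tested genes, and in LPSEff vs Eff 0 higher and 1 lower (median −0.12, all genes 0.01), beside 19.7%. Pdp1, a pyruvate dehydrogenase phosphatase, fell from a mean of 164 in Ctrl to 76.0 in LPS (log2 −1.11 ± 0.24, adjusted p = 0.0115) and from 196 in Eff to 73.4 in LPSEff (log2 −1.41 ± 0.24, adjusted p = 0.00484). Pdp2, the second such phosphatase, fell from 273 to 137 in LPS vs Ctrl (log2 −1.01 ± 0.25, adjusted p = 0.0221). The count in LPS vs Ctrl was 0 without Ctrl replicate 1 or LPS replicate 1, where adjusted p was 0.0766 and 0.0601 for Pdp1 and 0.116 and 0.111 for Pdp2, and 5 with equal totals or quantile normalization, which gave 4 and 2 in LPSEff vs Eff. Pdp2 also lost its call without Ctrl replicate 2 (0.0795) and with only the 2 groups compared (0.0503), while Pdp1 was called in LPSEff vs Eff without any 1 sample. Pdk4 was the 1 gene called in LPSEff vs LPS (median −0.03), and 0 were called in Eff vs Ctrl (median −0.11), beside 0.773% and 0.251% of all tested genes. These counts were 0 in LPSEff vs LPS without LPSEff replicate 1 or LPSEff replicate 2, with genes of a mean of at least 50 and with only the 2 groups compared, and 1 in Eff vs Ctrl with DESeq2.

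Of the 31 genes listed for fatty acid oxidation, 29 were tested, with Cpt1a among them. LPS vs Ctrl had 0 called higher and 5 lower (median log2 −0.44, all genes −0.01), beside 24.0% of all tested genes, and in LPSEff vs Eff 0 higher and 3 lower (median −0.32, all genes 0.01), beside 19.7%. Hadh, a β-oxidation dehydrogenase, fell from a mean of 249 in Ctrl to 85.0 in LPS (log2 −1.54 ± 0.25, adjusted p = 0.00369) and was called without any 1 sample. Acadm, the medium-chain acyl-CoA dehydrogenase, was lower by log2 −1.31 ± 0.32 (adjusted p = 0.0211), and Acaa2, a thiolase, by −1.13 ± 0.25 (adjusted p = 0.0128). In LPSEff vs Eff, Acaa2 (log2 −0.99 ± 0.25, adjusted p = 0.0244), Acads, the short-chain acyl-CoA dehydrogenase (log2 −0.84 ± 0.19, adjusted p = 0.0160), and Ech1, a dienoyl-CoA isomerase (log2 −0.72 ± 0.18, adjusted p = 0.0253), were the 3 called. Eff vs Ctrl and LPSEff vs LPS gave 0 calls, with medians of −0.00735 and −0.04.

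Calls in the oxidation list other than that of Hadh depended on single samples. The count in LPS vs Ctrl was 2 without Ctrl replicate 1, 1 without Ctrl replicate 2, 3 without LPS replicate 1 and 2 without LPS replicate 2, and in LPSEff vs Eff it was 1 without Eff replicate 1 or LPSEff replicate 1 and 0 without Eff replicate 2 or LPSEff replicate 2. With equal totals 13 were called in each, with quantile normalization 11 and 6, with all genes above a mean of 0 there were 3 in LPS vs Ctrl, and in LPSEff vs Eff DESeq2 called 5 and the fit of only the 2 groups 1. The replicate number as a term gave 15 in each in limma, and 14 in LPS vs Ctrl and 16 in LPSEff vs Eff in edgeR. Acadm lost its call without Ctrl replicate 2 (adjusted p = 0.130) or LPS replicate 1 (0.101), and Acaa2 in LPS vs Ctrl without Ctrl replicate 1 (0.0663), Ctrl replicate 2 (0.0687) or LPS replicate 2 (0.0511). Acaa2 lost it in LPSEff vs Eff without Eff replicate 2 (0.159, log2 −0.65), LPSEff replicate 1 (0.0970) or LPSEff replicate 2 (0.0989) and with only the 2 groups compared (0.0540), and Acads without Eff replicate 1 (0.106), Eff replicate 2 (0.0704) or LPSEff replicate 2 (0.0941). Ech1 lost it without Eff replicate 1 (0.0879), Eff replicate 2 (0.157), LPSEff replicate 1 (0.105) or LPSEff replicate 2 (0.105), and with all genes above a mean of 0 (0.0939) or only the 2 groups compared (0.0565).

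**Figure D2:**
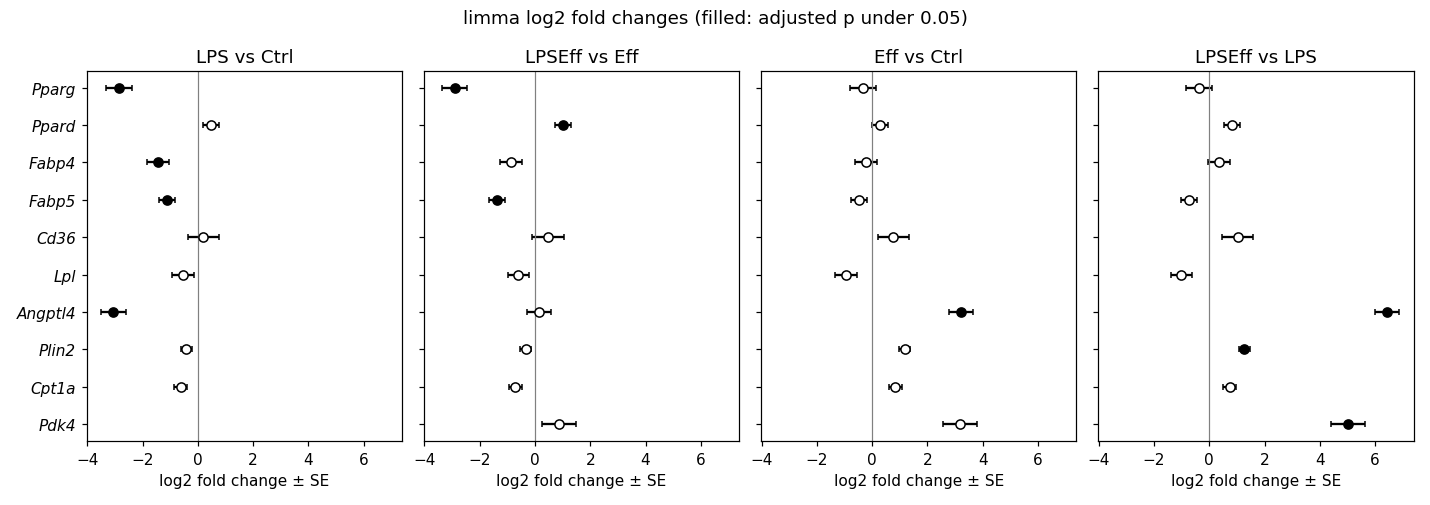
The limma log2 fold change ± SE of the 10 genes in the 4 contrasts, from log2(normalized count + 1), with filled points for an adjusted p under 0.05 and no point for Pdk4 in LPS vs Ctrl. Filled points lie below 0 for Pparg and Fabp5 in both LPS/IFNγ contrasts, and above 0 for Angptl4 in both co-culture contrasts.

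The interaction of LPS/IFNγ with co-culture called 0% of all tested genes in limma, 0 of the 16309, with 311 at an unadjusted p under 0.05, and edgeR and DESeq2 also called 0. After Angptl4, Pdk4 had the next lowest unadjusted p of the 10 genes (1.85 ± 0.87, unadjusted p = 0.0646). Like that of Angptl4, the value of Pdk4 depends on the pseudocount. For Pdk4 it rests on the 1 and 4 reads of LPS and Ctrl, and was 1.08 with a pseudocount of 5, 2.28 with 0.5 and 2.49 with DESeq2. For Pparg the interaction was −0.05 ± 0.65, with an unadjusted 95% interval of −1.54 to 1.44. Differences within that interval between the effect in naïve cells and after co-culture were not excluded. The interval does not mark the size at which a difference would have been called. Adjusted p was 1.00 for each of the 10 genes.

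Levels between genes were compared per kb of the canonical transcript. On this scale the mean of Lpl was highest and that of Plin2 second in every group. Their spreads overlapped in Eff (3184 ± 986 and 2429 ± 360) and in LPSEff (2145 ± 897 and 1929 ± 208), and in LPSEff replicate 1 Plin2, at 1782 per kb, was above Lpl, at 1510.5. The spreads were apart in Ctrl, with levels of 6000 ± 773 (SD, n = 2) normalized counts per kb for Lpl and 1067 ± 98.8 for Plin2. The same 2 ranks came from the length of all merged exons. In Ctrl, Fabp5 (854 ± 159), Fabp4 (392 ± 255), Cd36 (324 ± 107), Ppard (136 ± 10.3) and Cpt1a (124 ± 19.5) followed per kb. Spreads overlapped there between Plin2 and Fabp5, of Fabp4 with Cd36, Ppard and Cpt1a, and between Ppard and Cpt1a. Pparg was at 50.5 ± 14.1 per kb in Ctrl and 5.21 ± 2.46 in LPSEff, where Ppard was at 345 ± 134. Pdk4 was the lowest gene in Ctrl, LPS and Eff, at 0.484, 0.135 and 6.62 per kb, and Pparg was the lowest in LPSEff.

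The genes most like 3 of the members were sought over the 8 samples by Pearson r of log2(normalized count + 1), a description in which samples share their groups. For Pparg these were Dock3 (r = 0.996), Tmem144 (0.990), Crat (0.989), Spsb2 (0.989) and Dync2i2 (0.988). Ppard was most like Alkbh5 (0.991), Rusc2 (0.985), Lrrc59 (0.983), Ubtd1 (0.979) and Snhg12 (0.975). Angptl4 was most like Rin1 (0.991), Tnfrsf12a (0.986), Ckap4 (0.975), Slc20a2 (0.975) and Nr1d1 (0.966), and among the members its r was 0.962 with Plin2 and 0.943 with Pdk4.

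Promoter sequences from RefSeq (build GRCm38.p6, which differs from the build of the gene positions) were searched for the nuclear receptor half-site AGGTCA, on both strands, in windows of 250 bases before to 50 bases after each start. Of the 10 genes, 6 were matched with 8 windows: Pparg, Ppard, Cd36, Plin2, Cpt1a and Pdk4. Angptl4, Fabp4, Fabp5 and Lpl were not matched. The half-site stood in 5 of the 8 windows, of 4 genes (Pparg, Cd36, Plin2 and Cpt1a), and in 16.3% of all 32851 promoters. A direct repeat of it with 1 base between, AGGTCANAGGTCA, which overlaps the half-site, stood in 0 of the 8 and in 0.0396% of all. Windows of Plin2, Cpt1a and Pdk4 are shown because these genes act in fatty acid storage and oxidation and had their highest sample in a co-culture group. Capitals mark the half-site, read here as TGACCT from the opposite strand, with its first base 218 bases before the start in Plin2 and 94 before it in Cpt1a, and the Pdk4 window holds none. A match describes letters, not a bound site.
Plin2 (chr4:86670010-86670309, − strand): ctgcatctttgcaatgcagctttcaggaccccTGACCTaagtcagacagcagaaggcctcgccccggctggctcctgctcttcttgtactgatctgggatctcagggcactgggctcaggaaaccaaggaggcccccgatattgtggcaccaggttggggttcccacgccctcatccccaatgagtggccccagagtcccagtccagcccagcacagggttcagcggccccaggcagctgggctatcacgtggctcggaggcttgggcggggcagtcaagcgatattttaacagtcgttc
Cpt1a (chr19:3323051-3323350, + strand): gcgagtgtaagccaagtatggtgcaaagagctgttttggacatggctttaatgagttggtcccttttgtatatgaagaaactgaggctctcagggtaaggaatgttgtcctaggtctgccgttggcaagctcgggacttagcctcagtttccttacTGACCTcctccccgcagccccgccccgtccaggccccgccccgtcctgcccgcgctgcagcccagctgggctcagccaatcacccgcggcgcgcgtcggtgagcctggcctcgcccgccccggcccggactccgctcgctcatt
Pdk4 (chr6:5496229-5496528, − strand): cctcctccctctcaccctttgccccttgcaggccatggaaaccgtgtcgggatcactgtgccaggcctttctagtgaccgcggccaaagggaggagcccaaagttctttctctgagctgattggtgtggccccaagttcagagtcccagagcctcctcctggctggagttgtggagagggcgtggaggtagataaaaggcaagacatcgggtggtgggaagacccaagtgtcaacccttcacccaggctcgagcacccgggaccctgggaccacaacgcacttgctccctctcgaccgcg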

How the data were processed

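Total RNA-seq of 8 BMDM samples was analysed (4 groups, n = 2). After rRNA depletion, the authors used cutadapt for trimming, bowtie2 to take out rRNA reads, STAR for mapping (mm39), htseq-count in its default mode and DESeq2. Tool versions and the annotation release are not given in the sources used here. The signal the authors deposited is a normalized count per gene. Whole reads were recovered from the smallest step of each sample, and 100% of values were whole within 0.01 of a read. Symbols and positions came from GENCODE release M39 of GRCm39.

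The main test was the trend method of limma 3.58.1 in R 4.3.3, on log2(normalized count + 1) of 16309 genes with a mean of at least 10, all 4 groups in 1 fit with 4 residual degrees of freedom, and Benjamini-Hochberg adjustment over all genes. With 2 samples a side, the smallest p of an exact permutation test would be 0.333. Alternatives were pseudocounts of 0.5 and 5, means above 0 and of at least 50, only the groups compared, the replicate number as a term, equal totals, quantile normalization, edgeR 4.0.16 with TMM and DESeq2 1.42.0 on recovered reads, and leaving out each sample in turn, where a lone sample is assumed to vary like the other groups. Ratio intervals (95%) are exact conditional binomial and, like read floors, cover counting error only. The fit was also run on simulated data, whose outcome is not given here, so that it is no support for these results.

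Named were the 10 members, from each pathway list up to 3 called genes with the largest rise and 3 with the largest fall in each LPS/IFNγ contrast and up to 5 called in each co-culture contrast, the most abundant marker of each cell type, and the 5 genes most like Pparg, Ppard and Angptl4. Members and lists were chosen with earlier results of these data known. Copies were sought with blastn of canonical transcripts against GRCm39 at 95% identity. The minimum length was raised from 100 to 300 bases after the matches were seen: at 100 bases Cpt1a had 60, Lpl 5, Fabp5 3 and Plin2 1, and at 300 Fabp5 had 2 and Plin2 1. Exons of 6 members share bases with antisense lncRNAs that are not among the genes listed, and strand use in counting was not stated beyond the default mode.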

Additional observations from a re-analysis of the deposited data

Results flagged for a closer look

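The Pdk4 samples of the stimulated group lay on opposite sides of the unstimulated ones in naïve macrophages and after co-culture. Both LPS samples (0 and 1.02 normalized counts) were below both Ctrl samples (1.90 and 1.73), and both LPSEff samples (41.2 and 49.5) were above both Eff samples (20.2 and 29.6). The limma interaction was 1.85 ± 0.87 (SE), with an unadjusted p of 0.0646 and an adjusted p of 1.00. That value depends on the pseudocount (1.08 with 5, 2.28 with 0.5) and was 2.49 with DESeq2. LPSEff vs Eff was not called (adjusted p = 0.389), and the naïve samples hold no more than 3 reads each, so that neither a direction between LPS and Ctrl nor an opposite effect was detectable.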

How the results depend on the processing

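Pparg in LPS vs Ctrl and in LPSEff vs Eff and Angptl4 in LPS vs Ctrl kept their direction and stayed under an adjusted p of 0.05 in all alternatives run. The cause of each change given here was not tested. With only the groups compared, the number of the 10 genes called was 2 in LPS vs Ctrl (4 in the main analysis), 1 in LPSEff vs LPS (3) and 0 in Eff vs Ctrl (1). In LPS vs Ctrl it was 6 with equal totals or quantile normalization, and in LPSEff vs Eff (3) it was 6 with equal totals and 5 with quantile normalization. In Eff vs Ctrl it was 0 with genes of a mean of at least 50, 0 with edgeR and 3 with DESeq2. Leaving out 1 sample gave 2 to 3 in LPS vs Ctrl, 1 to 3 in LPSEff vs Eff, 0 to 2 in LPSEff vs LPS and 0 to 1 in Eff vs Ctrl.

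With the replicate block (3 residual degrees of freedom) the number was 6 in LPS vs Ctrl, 6 in LPSEff vs Eff, 7 in LPSEff vs LPS and 5 in Eff vs Ctrl. All genes called were 6717 in LPS vs Ctrl (3910 without the block), 6033 in LPSEff vs Eff (3213), 1137 in LPSEff vs LPS (126) and 436 in Eff vs Ctrl (41). edgeR with the replicate block, an alternative chosen after seeing the data, gave 6 in LPS vs Ctrl, 6 in LPSEff vs Eff, 7 in LPSEff vs LPS and 5 in Eff vs Ctrl, with 6663, 6314, 1233 and 429 of all genes in the order above. With the block in limma or edgeR, Lpl and Cpt1a were called in all 4 contrasts, Cd36 and Ppard in LPSEff vs LPS, Fabp4 in LPSEff vs Eff, and Plin2 and Pdk4 in Eff vs Ctrl, none of them called in the main analysis. Among pathway lists of 0 calls in LPSEff vs LPS, the block gave 4 for receptors, 3 for uptake and 2 for oxidation, with either tool. Among lists of 0 calls in Eff vs Ctrl it gave 1 for uptake, 1 for oxidation and 1 for pyruvate dehydrogenase with either tool. For the droplet list it gave 2 there in limma and 3 in edgeR. The difference between replicates 1 and 2 correlated over genes in all 6 pairs of groups (r 0.404 to 0.595), and since the labels name nothing that the numbers share, the main analysis has no such term.

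All genes called also moved in Eff vs Ctrl to 207 with DESeq2, 14 with edgeR, 79 with means above 0, 20 with means of at least 50 and 9 with only the groups compared, in LPSEff vs LPS to 368 with DESeq2 and 66 with only the groups compared, and in LPSEff vs Eff to 5578 with equal totals. Without 1 sample they ranged from 2076 to 3562, 1567 to 3407, 0 to 84 and 0 to 45, in the order of the counts with the block. Of the calls in LPSEff vs LPS, 94.4% were higher, 78.3% with DESeq2, 61.9% with the replicate block and 58.0% with edgeR and the block. Of those in Eff vs Ctrl, 85.4% were higher, 63.5% with the replicate block and 62.9% with edgeR and the block.

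Signs turned for Cd36 in LPS vs Ctrl with equal totals (−0.20) and quantile normalization (−0.16), Cd36 in LPSEff vs Eff with quantile normalization (−0.10), Angptl4 in LPSEff vs Eff with equal totals (−0.30), the Pparg interaction with a pseudocount of 5 (0.0139) and the Plin2 interaction with quantile normalization (−0.16). Without 1 sample, signs turned within −0.89 to 0.14 for Pparg in LPSEff vs LPS, −0.94 to 0.50 for Fabp4 in Eff vs Ctrl, −0.61 to 1.01 and −0.10 to 1.04 for Cd36 in LPS vs Ctrl and LPSEff vs Eff, and −0.43 to 0.72 for Angptl4 in LPSEff vs Eff. Interactions ranged from −0.56 to 0.46 for Pparg, −0.14 to 1.29 for Fabp4, −0.65 to 0.12 for Fabp5, −0.54 to 1.08 for Cd36, −0.51 to 0.37 for Lpl, −0.0654 to 0.24 for Plin2 and −0.34 to 0.14 for Cpt1a. None of the sign changes was in a called value. Of the list genes taken by the rule for called genes, 338 of 360 values under the alternatives other than the block and left-out samples kept their direction and call, and 22 lost the call, while without 1 sample 76 of 320 lost it. The interaction has no fit with only the groups compared, and Pdk4 none with a mean of at least 50. With 2 samples a group and 3 reads worth up to 5.71 normalized counts, small changes and changes of the lowest genes were not detectable.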
